A study of Mus musculus with 12 samples.

Results

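The 10 genes described here were NRF2 (Nfe2l2), its inhibitor KEAP1 (Keap1) and 8 antioxidant genes that NRF2 is known to control, which are Hmox1, Nqo1, Gclc, Gclm, Slc7a11, Txnrd1, Gsr and Srxn1. They were taken by name out of 25230 genes counted by RNA-seq in mouse mesangial cells (MMC), the contractile cells of the kidney glomerulus. Primary MMC of wild-type (WT) mice were set beside those of lncMGC-KO5 (KO), which is 1 line of mice on a C57BL/6 background with a short Cas9 deletion at the start of the long noncoding RNA lncMGC, the host of the miR-379 microRNA cluster. Cells of each genotype were serum-depleted (SD) or received TGF-β, the main profibrotic cytokine of diabetic kidney disease, at 10 ng/ml for 24 h. This gave WT-SD and WT-TGF as well as KO-SD and KO-TGF, 4 groups with 3 libraries each. All of the cells had been grown in medium with serum from pooled glomeruli before these treatments, and neither the number of mice behind a culture nor their age or sex was given in the sources used here. Any difference between KO and WT is therefore a difference between cultures of 1 KO line and WT cultures.

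NRF2 is a transcription factor that KEAP1 holds in the cytoplasm and passes to the ubiquitin ligase CUL3 for degradation. Oxidants and electrophiles modify cysteines of KEAP1, and NRF2 then accumulates, enters the nucleus and binds antioxidant response elements together with small MAF proteins, where the repressor BACH1 competes for the same sites. This control acts mainly on the protein, which RNA-seq does not measure. The target genes supply cysteine and make glutathione, reduce thioredoxin and sulfiredoxin substrates, degrade heme and reduce quinones. In the kidney the pathway is known as a defence against the oxidative stress that accompanies TGF-β and high glucose.

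Each library had 19898050 to 22827706 counts on genes, and 3 counts, taken as the floor of detection, were worth 0.130 to 0.161 CPM (counts per 1000000 counts). Levels are given as CPM with library sizes scaled by TMM (trimmed mean of M values). Of 11552 genes that passed the limit on low values, which all 10 genes did, the quasi-likelihood test of edgeR, adjusted by Benjamini-Hochberg, called 72.3% with TGF-β in WT at FDR <5% and 73.9% in KO. The limit was an RPKM (CPM per exon length) above 1 in at least 1 library, so a gene could pass through the group where it was high. Slc7a11 passed only in the TGF-β groups, and Nqo1 only in SD libraries. KO and WT differed in 55.8% of genes in SD and in 55.0% under TGF-β. A call is thus common in these data, since the libraries of a group were close to each other, with a common biological coefficient of variation of 0.0271. The p-values measure the spread between the 3 libraries of a group, which may be partly technical. lncMGC itself was not analysed here, so the genotypes are as labelled. Of the cell type markers, the mesangial and smooth muscle list summed to 2693 to 2847 CPM in WT-SD, 5870 to 6029 in WT-TGF, 5236 to 5445 in KO-SD and 11129 to 11204 in KO-TGF. Acta2, smooth muscle actin, led it, followed by Tagln, while Des, desmin, was at 5.10 to 8.77 CPM in WT and 0.161 to 0.551 CPM in KO. Of its 9 genes tested, 6 rose with TGF-β in WT and 2 fell, beside 35.9% and 36.5% of all genes. In KO 7 rose and 2 fell, beside 34.9% and 39.0%. Rgs5 fell from 119 to 148 CPM in KO-SD to 46.0 to 49.3 in KO-TGF. Itga8, under the limit on low values, had 2.80 to 3.45 CPM in KO-SD and 0.588 to 0.682 in KO-TGF. The 14 macrophage markers summed to 37.2 to 40.5, 20.6 to 24.2, 8.45 to 9.91 and 2.67 to 2.996 CPM in the same order, the podocyte list to 455 to 474 CPM in WT and 205 to 227 CPM in KO with Nphs1, nephrin, at or under the floor in all groups, the endothelial list did not pass 1.01 CPM, and the tubular list summed to 45.3 to 47.8 CPM in WT-SD, 16.98 to 18.7 in WT-TGF, 15.4 to 15.8 in KO-SD and 11.7 to 13.4 in KO-TGF, with 4 of its 8 genes at the floor in every group (Slc34a1, Umod, Aqp2 and Epcam). Most of the tubular sum in WT-SD was Lrp2, whereas Cubn and Slc12a1 were higher in KO-TGF than in WT-SD. The part of these marker differences in the results below was not tested. In bulk RNA, fewer cells of a type and less RNA per cell cannot be told apart.

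Promoter sequences are shown for Slc7a11, which changed most among the 10 genes, for Srxn1, whose window held the most motif matches, and for Gclm, which no comparison called. They run 5′ to 3′ on the strand of the gene, from 250 bases before to 50 bases after the annotated start, and are RefSeq sequences of GRCm38.p6, the assembly of mm10. The Slc7a11 window is chr3:50443564-50443863 on the minus strand, the Srxn1 window chr2:152105274-152105573 on the plus strand and the Gclm window chr3:122245307-122245606 on the plus strand. Capitals mark matches to the motifs searched on both strands, which were the antioxidant response element cores TGACNNNGC and TGAGNNNGC, the AP-1 site TGACTCA and the ATF4 composite site TGATGNAA.
Slc7a11: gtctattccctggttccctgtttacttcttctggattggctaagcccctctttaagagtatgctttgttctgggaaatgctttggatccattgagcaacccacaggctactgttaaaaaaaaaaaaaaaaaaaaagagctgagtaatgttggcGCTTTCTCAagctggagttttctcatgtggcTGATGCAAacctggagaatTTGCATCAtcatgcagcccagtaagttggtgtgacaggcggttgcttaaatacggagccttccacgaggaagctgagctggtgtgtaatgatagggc
Srxn1: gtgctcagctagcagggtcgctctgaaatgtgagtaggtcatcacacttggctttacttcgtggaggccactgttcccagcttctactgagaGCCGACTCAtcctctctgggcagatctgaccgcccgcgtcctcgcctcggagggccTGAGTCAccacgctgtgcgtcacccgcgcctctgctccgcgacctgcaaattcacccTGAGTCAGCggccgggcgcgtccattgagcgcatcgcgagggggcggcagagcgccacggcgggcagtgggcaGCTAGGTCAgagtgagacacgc
Gclm: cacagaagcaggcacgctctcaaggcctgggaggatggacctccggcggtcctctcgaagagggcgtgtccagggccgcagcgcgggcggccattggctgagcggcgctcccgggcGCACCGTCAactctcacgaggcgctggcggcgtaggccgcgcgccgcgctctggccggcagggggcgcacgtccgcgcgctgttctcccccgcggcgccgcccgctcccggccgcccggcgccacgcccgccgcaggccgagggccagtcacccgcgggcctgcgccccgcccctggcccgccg

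The Slc7a11 window held TGATGNAA 2 times, at bases -66 to -59 on the strand of the gene and at -47 to -40 on the other strand, counted from the start base as 0, and TGAGNNNGC once at -97 to -89. In Srxn1, TGAGNNNGC stood at -158 to -150 and at -45 to -37, TGACTCA at -102 to -96 and at -45 to -39, and TGACNNNGC at 28 to 36 after the start. The match of Srxn1 at -45 is shared, since the same bases hold TGACTCA on the other strand. Gclm held TGACNNNGC at -134 to -126. Among the 10 genes, 7 had a promoter in the RefSeq table used (Hmox1, Gclc and Gsr did not), in 9 windows, 3 of them of Txnrd1. Of these 7, TGACNNNGC was found in 4 (Nfe2l2, Srxn1, Gclm and Txnrd1), TGAGNNNGC in 2, TGACTCA in 1 and TGATGNAA in 1. In all 32851 promoter windows of 300 bases, the shares were 12.4% for TGACNNNGC, 17.6% for TGAGNNNGC, 5.2% for TGACTCA and 3.97% for TGATGNAA. A match describes the letters of the window and is no evidence of binding, and elements farther from the start lie outside it.

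Levels of different genes were compared per exon length, as RPKM. Gclc had the highest RPKM of the 10 genes in every group, from 33.1 ± 1.57 (SD, n = 3) in KO-SD to 50.01 ± 1.36 in KO-TGF. Slc7a11 and Nqo1 were the lowest. Slc7a11, measured over 13922 bases of exons, stood at 0.480 ± 0.0354 RPKM in WT-SD and 2.56 ± 0.175 in KO-TGF, whereas Nqo1 stood at 1.40 ± 0.217 and 0.627 ± 0.219. In RPKM, Slc7a11 was thus below Nqo1 in WT-SD and above it in WT-TGF and KO-TGF. In CPM it was above Nqo1 in WT-SD too, at means of 6.68 against 2.17, so the order there rests on the exon lengths used. Neighbours in the order of levels overlapped in their libraries only in KO-SD, for Nfe2l2 and Hmox1, for Srxn1 and Keap1, and for Nqo1 and Slc7a11. In the other 3 groups, the libraries of neighbouring genes did not overlap. Nfe2l2 was the next to highest gene in both SD groups, at 32.2 ± 1.02 RPKM in WT-SD and 28.3 ± 1.03 in KO-SD, but was the fourth in KO-TGF at 25.8 ± 0.157.

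**Figure D1:**
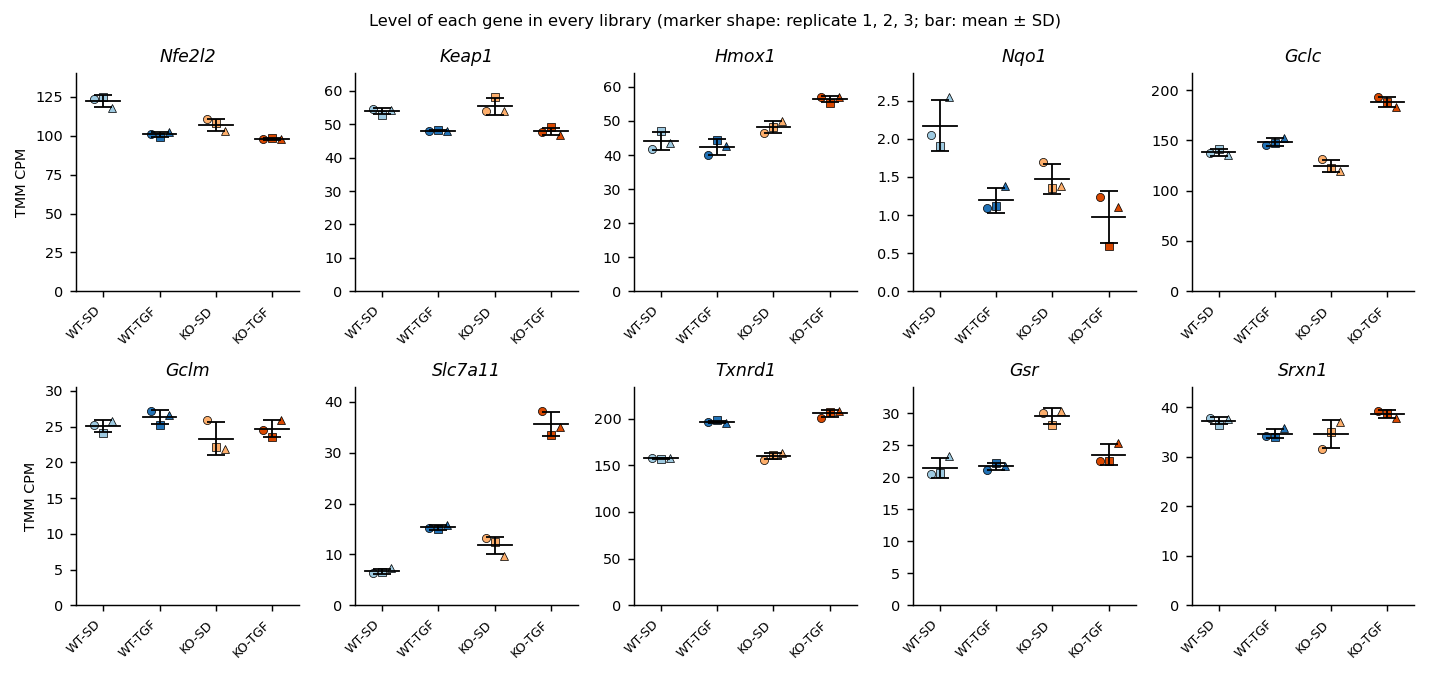
Level in TMM CPM (y axis, linear from 0, a separate scale for each gene) of the 10 genes in the 3 libraries of each group (x axis), with marker shapes for replicates 1 to 3 and bars for the mean ± SD. Slc7a11 rises from 6.33 to 7.25 CPM in WT-SD to 33.5 to 38.3 CPM in KO-TGF, while Gclm stays between 21.9 and 27.3 CPM in all libraries.

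To ask how TGF-β acts on this pathway in WT MMC, WT-TGF was compared with WT-SD. Of the 10 genes, 3 rose at FDR <5% (Slc7a11, Txnrd1 and Gclc) and 3 fell (Nfe2l2, Keap1 and Nqo1), beside 35.9% and 36.5% of all genes tested. Their median log2 fold change was -0.02, against -0.01 for all genes. In KO, KO-TGF against KO-SD, 5 rose (Slc7a11, Gclc, Txnrd1, Hmox1 and Srxn1) and 4 fell (Nqo1, Gsr, Keap1 and Nfe2l2), beside 34.9% and 39.0% of all genes, with a median of 0.12 against -0.02. In both genotypes Slc7a11 was the member that changed more than 2-fold, as did 4.21% of all genes on the higher and 5.68% on the lower side in WT, and 4.43% and 9.03% in KO. When TMM was left out and libraries were scaled by size alone, the median of all genes moved by -0.16 in WT and by -0.20 in KO, and the counts to 2 higher and 6 lower in WT and to 3 higher and 4 lower in KO. Of all 11552 genes tested, that scaling left 2660 higher in WT and 2313 higher in KO.

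KO was compared with WT to ask what loss of lncMGC goes with in each condition. In SD, 3 of the 10 genes were higher in KO (Slc7a11, Gsr and Hmox1) and 3 lower (Nqo1, Nfe2l2 and Gclc), beside 30.5% and 25.3% of all genes tested, or 2 higher and 5 lower with scaling by library size alone. Under TGF-β, 5 were higher in KO (Slc7a11, Hmox1, Gclc, Srxn1 and Txnrd1), beside 27.3%, and edgeR's quasi-likelihood test called 0 lower, beside 27.7%. At an unadjusted p under 0.05 that count was also 0, and by DESeq2 it was 0 as well, but scaling by library size alone gave 3 lower and 3 higher. Of all 11552 genes tested, that scaling gave 5406 lower and 1652 higher under TGF-β. It moved the median of all genes by -0.07 in SD and by -0.12 under TGF-β. Slc7a11 was the only gene of the 10 past 2-fold under TGF-β, beside 1.39% of all genes on the higher and 4.61% on the lower side, and none passed it in SD, beside 3.25% and 3.15%. The interaction, which is the response to TGF-β in KO minus that in WT, was positive for 5 genes (Gclc, Slc7a11, Hmox1, Srxn1 and Nfe2l2) and negative for 1 (Gsr), beside 8.75% and 16.5% of all genes. The 5 fell to 3 without KO-SD replicate 3, when Nfe2l2 (0.12, adjusted p = 0.0707) and Slc7a11 (0.29, adjusted p = 0.0728) were not called. These comparisons share libraries and are not independent of each other.

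**Figure D2:**
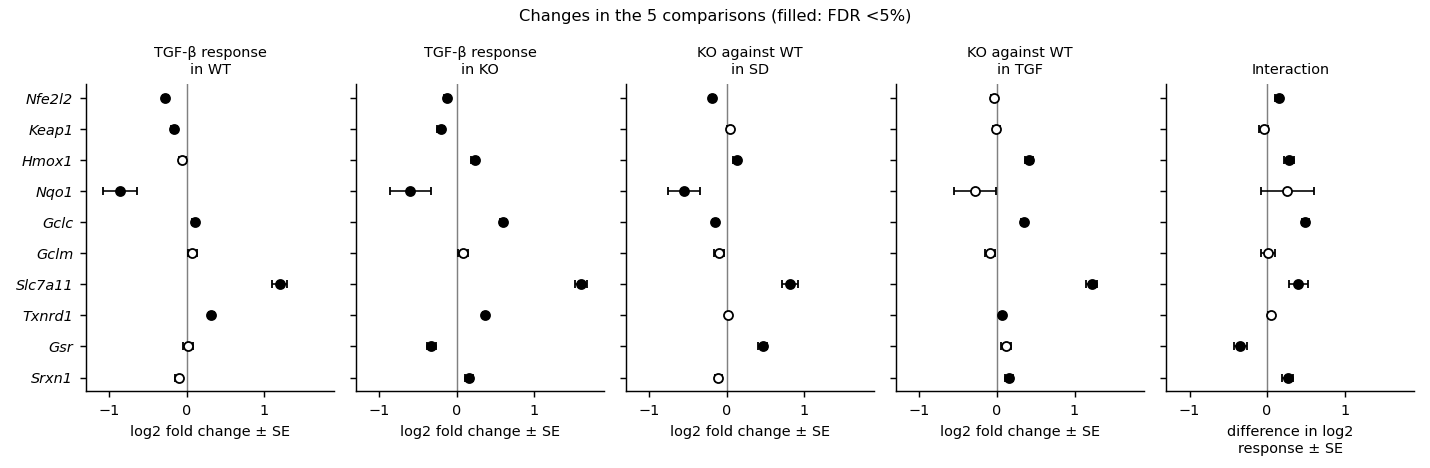
Log2 fold change ± SE (x axis) of the 10 genes (y axis) in the 5 comparisons, filled where edgeR called the gene at FDR <5%. Slc7a11 has the largest values, 1.197 and 1.60 for the TGF-β responses and 0.81 and 1.22 for KO against WT; the small positive values of Gclc in WT, Srxn1 in KO and Txnrd1 for KO against WT under TGF-β turn negative with scaling by library size alone.

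Nfe2l2, which encodes NRF2 (minus strand of chromosome 2, mm10, 75675513 to 75704663), had 124, 125 and 118 CPM in WT-SD and 101, 99.5 and 103 CPM in WT-TGF. In KO it had 111, 108 and 103 CPM in SD and 97.6, 98.8 and 97.9 CPM under TGF-β. WT-SD was thus above the other groups in all of its libraries, and the 4 groups did not overlap in any of the pairs compared. The mRNA fell with TGF-β by 0.28 ± 0.03 (SE) on the log2 scale in WT (adjusted p = 1.2e-08) and by 0.13 ± 0.03 in KO (adjusted p = 0.00133). Before TGF-β it was lower in KO than in WT, with a log2 fold change of -0.19 ± 0.03 (adjusted p = 1.2e-05), whereas KO-TGF and WT-TGF differed by -0.04 ± 0.03 (adjusted p = 0.302), or by -0.16 (adjusted p = 0.000142) with scaling by library size alone. The fall was smaller in KO by 0.15 ± 0.05 (adjusted p = 0.0208 for the interaction). This difference between the genotypes was not called without WT-SD replicate 1 (0.14, adjusted p = 0.0525), WT-SD replicate 2 (0.13, adjusted p = 0.0769), WT-TGF replicate 2 (0.14, adjusted p = 0.0560) or KO-SD replicate 3 (0.12, adjusted p = 0.0707), nor with scaling by library size (0.10, adjusted p = 0.116).

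Keap1, the inhibitor gene (minus strand of chromosome 9, 21229730 to 21239332), fell with TGF-β in both genotypes. It had 54.6, 52.9 and 54.1 CPM in WT-SD against 48.0, 48.3 and 47.9 CPM in WT-TGF, and 53.9, 58.2 and 53.8 CPM in KO-SD against 47.6, 49.0 and 46.8 CPM in KO-TGF. The libraries separated by treatment and not by genotype. The log2 fold change was -0.16 ± 0.04 in WT (adjusted p = 0.000520) and -0.21 ± 0.04 in KO (adjusted p = 3.4e-05). Between KO and WT it was 0.04 ± 0.04 in SD (adjusted p = 0.424) and -0.01 ± 0.04 under TGF-β (adjusted p = 0.899), the interaction was -0.05 ± 0.06 (adjusted p = 0.627), and the sign of these differences turned with single libraries or scaling. The ratio of Nfe2l2 to Keap1 counts within a library was 2.27 in WT-SD, 2.103 in WT-TGF, 1.94 in KO-SD and 2.05 in KO-TGF.

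Slc7a11 (minus strand of chromosome 3, 50364936 to 50499087) encodes xCT, the light chain of the cystine-glutamate exchanger that brings in cystine for glutathione, and its gene is also a known target of ATF4. It had 6.33, 6.47 and 7.25 CPM in WT-SD, 15.1, 15.0 and 15.9 in WT-TGF, 13.1, 12.4 and 9.77 in KO-SD and 38.3, 33.5 and 35.2 in KO-TGF, from 139 to 716 counts per library. Every library of KO-SD was above those of WT-SD, and every library of KO-TGF was above all others. TGF-β raised Slc7a11 2.29-fold in WT (log2 1.197 ± 0.10, adjusted p = 2.3e-12) and 3.03-fold in KO (log2 1.60 ± 0.08, adjusted p = 4.8e-18). KO exceeded WT 1.76-fold in SD (log2 0.81 ± 0.10, adjusted p = 4.4e-08) and 2.33-fold under TGF-β (log2 1.22 ± 0.07, adjusted p = 4.0e-15). The larger response in KO had an interaction of 0.40 ± 0.13 (adjusted p = 0.0171), which was not called without WT-SD replicate 3 (0.34, adjusted p = 0.0775) or KO-SD replicate 3 (0.29, adjusted p = 0.0728). The promoter window printed above lies inside the annotated gene span, whose start is that of a longer transcript.

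Slc3a2, the heavy chain (4F2hc) that carries xCT and other light chains to the membrane, was among the wider genes of the pathway. It had 164, 169 and 166 CPM in WT-SD, 198, 205 and 204 in WT-TGF, 200, 209 and 208 in KO-SD and 269, 278 and 276 in KO-TGF. The ratio of Slc7a11 to Slc3a2 counts within a library was 0.0401 in WT-SD, 0.0758 in WT-TGF, 0.0567 in KO-SD and 0.130 in KO-TGF. No 2 of the groups compared overlapped in this ratio. The exact two-sided permutation test of 3 against 3 libraries gave p = 0.1, the smallest it can give, in each of the 4 comparisons, and 0.125 after Benjamini-Hochberg adjustment over 20 tests of ratios.

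Gclc and Gclm encode the catalytic and the modifier subunit of glutamate-cysteine ligase, the rate-limiting enzyme of glutathione synthesis. Gclc (plus strand of chromosome 9, 77754535 to 77794489) had 137, 142 and 135 CPM in WT-SD, 145, 147 and 153 in WT-TGF, 131, 123 and 120 in KO-SD and 194, 188 and 183 in KO-TGF. KO-SD was the lowest group and KO-TGF the highest, with no overlap between the groups compared. TGF-β raised it by 0.60 ± 0.03 on the log2 scale in KO (1.51-fold, adjusted p = 2.0e-16). In WT the rise was 0.10 ± 0.03 (adjusted p = 0.00530), which turned to -0.05 with scaling by library size alone. The interaction was 0.49 ± 0.05 (adjusted p = 1.0e-09), the largest among the 10 genes. Compared with WT, the log2 difference of KO was -0.15 ± 0.03 for SD cells (adjusted p = 0.000365), and Gclc was higher in KO under TGF-β (0.34 ± 0.03, adjusted p = 1.5e-10).

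Gclm (plus strand of chromosome 3, 122245487 to 122267215) had 25.3, 24.1 and 25.8 CPM in WT-SD, 27.3, 25.2 and 26.6 in WT-TGF, 26.0, 22.1 and 21.9 in KO-SD and 24.6, 23.6 and 26.0 in KO-TGF. The groups overlapped in all 4 pairs. The log2 fold change was 0.07 ± 0.06 with TGF-β in WT (adjusted p = 0.287) and 0.08 ± 0.06 in KO (adjusted p = 0.247), and that between KO and WT was -0.10 ± 0.06 in SD (adjusted p = 0.170) and -0.09 ± 0.06 under TGF-β (adjusted p = 0.225). The interaction was 0.01 ± 0.09 (adjusted p = 0.958). Without KO-SD replicate 1, the highest library of its group, Gclm was called in KO with TGF-β (0.17, adjusted p = 0.0183) and between KO and WT in SD (-0.19, adjusted p = 0.0101). Scaling by library size alone turned both TGF-β values negative and called Gclm lower in KO (-0.18 in SD and -0.21 under TGF-β). The ratio of Gclm to Gclc counts was 0.182 in WT-SD, 0.178 in WT-TGF, 0.187 in KO-SD and 0.131 in KO-TGF. Only the KO-TGF libraries stood apart in this ratio, with log2 ratios of -2.98, -2.995 and -2.82 against -2.56 to -2.34 in the other groups. The difference between KO-TGF and KO-SD in the log2 ratio was -0.51 (exact permutation p = 0.1, the smallest possible).

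**Figure D3:**
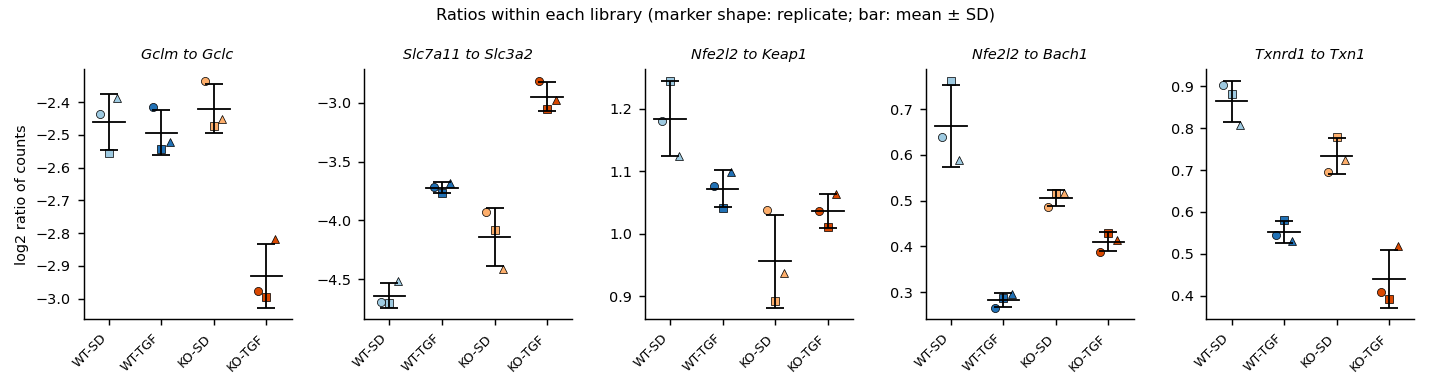
Log2 ratio of the counts of 2 genes within each library (y axis, a separate scale for each pair) in the 4 groups (x axis), with marker shapes for replicates and bars for the mean ± SD. Gclm to Gclc is lower in the KO-TGF libraries, at a mean of -2.93, than in the other groups, and Slc7a11 to Slc3a2 is highest there, at -2.95.

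Gsr (plus strand of chromosome 8, 33653238 to 33698162) encodes glutathione reductase, which returns oxidized glutathione to its reduced form with NADPH. It had 20.5, 20.7 and 23.3 CPM in WT-SD, 21.1, 22.2 and 21.8 in WT-TGF, 30.1, 28.1 and 30.4 in KO-SD and 22.5, 22.6 and 25.4 in KO-TGF. KO-SD alone stood above all other libraries. Gsr was higher in KO than in WT in SD, by 0.46 ± 0.06 on the log2 scale (adjusted p = 9.4e-08), and fell with TGF-β in KO by 0.33 ± 0.06 (adjusted p = 1.5e-05). With TGF-β in WT the log2 fold change was 0.01 ± 0.06 (adjusted p = 0.854), and KO-TGF differed from WT-TGF by 0.12 ± 0.06 (adjusted p = 0.126), with the sign of both turning under scaling by library size alone. Gsr was the only one of the 10 genes with a negative interaction at FDR <5%, -0.34 ± 0.09 (adjusted p = 0.00332).

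Txnrd1 (plus strand of chromosome 10, 82833951 to 82897724) encodes cytosolic thioredoxin reductase, the NADPH-dependent selenoenzyme that keeps thioredoxin reduced. It had 158, 157 and 158 CPM in WT-SD, 196, 198 and 195 in WT-TGF, 156, 161 and 163 in KO-SD and 201, 207 and 209 in KO-TGF. All TGF-β libraries were above all SD libraries. The rise was 1.25-fold in WT (log2 0.32 ± 0.03, adjusted p = 3.7e-12) and 1.29-fold in KO (log2 0.36 ± 0.03, adjusted p = 1.7e-13), and the interaction was 0.05 ± 0.04 (adjusted p = 0.425). In SD the genotypes differed by 0.02 ± 0.03 (adjusted p = 0.534). KO-TGF was above WT-TGF by 0.07 ± 0.03 (adjusted p = 0.0331), but this was -0.06 with scaling by library size alone, and was not called without WT-SD replicate 2 (0.06, adjusted p = 0.0532), WT-TGF replicate 1 (0.06, adjusted p = 0.0952) or WT-TGF replicate 3 (0.06, adjusted p = 0.0867). The substrate gene Txn1, thioredoxin, had a mean of 86.5 CPM in WT-SD, 134 in WT-TGF, 96.1 in KO-SD and 152 in KO-TGF. The ratio of Txnrd1 to Txn1 counts was 1.82, 1.47, 1.66 and 1.36 in the same order.

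Srxn1 (plus strand of chromosome 2, 152105524 to 152111376) encodes sulfiredoxin, which repairs overoxidized peroxiredoxins. It had 37.9, 36.4 and 37.7 CPM in WT-SD, 34.3, 34.0 and 35.7 in WT-TGF, 31.6, 35.1 and 37.1 in KO-SD and 39.3, 38.8 and 37.8 in KO-TGF. The KO-TGF libraries were above those of KO-SD and WT-TGF. In KO it rose with TGF-β by 0.16 ± 0.05 on the log2 scale (adjusted p = 0.00602), but the value was -0.04 with scaling by library size alone and 0.10 (adjusted p = 0.0834) without KO-SD replicate 1. In WT the log2 fold change was -0.11 ± 0.05 (adjusted p = 0.0584), and it was called without WT-TGF replicate 3, KO-SD replicate 1, KO-SD replicate 3 or any of the 3 KO-TGF libraries (-0.13 to -0.11, adjusted p = 0.0319 to 0.0472). KO-TGF was above WT-TGF by 0.16 ± 0.05 (adjusted p = 0.0104), but by 0.04 (adjusted p = 0.572) with scaling by library size. In SD, KO differed from WT by -0.11 ± 0.05 (adjusted p = 0.0629), called without KO-SD replicate 3 (-0.16, adjusted p = 0.0100) or any of the KO-TGF libraries (-0.13, adjusted p = 0.0324 to 0.0343). The interaction was 0.27 ± 0.07 (adjusted p = 0.00543).

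Hmox1 (plus strand of chromosome 8, 75093618 to 75100593) encodes heme oxygenase-1, which breaks heme down to biliverdin, iron and carbon monoxide and is repressed by BACH1. It had 41.8, 47.0 and 43.5 CPM in WT-SD, 39.97, 44.5 and 42.7 in WT-TGF, 46.4, 48.2 and 49.9 in KO-SD and 57.1, 55.3 and 56.9 in KO-TGF. KO-TGF was above every other library, whereas WT-SD overlapped with both WT-TGF and KO-SD. The difference of KO-TGF from WT-TGF was 0.41 ± 0.05 on the log2 scale (adjusted p = 7.4e-09). TGF-β raised Hmox1 in KO by 0.23 ± 0.05 (adjusted p = 5.3e-05), which was 0.03 (adjusted p = 0.620) with scaling by library size alone, whereas in WT the log2 fold change was -0.06 ± 0.05 (adjusted p = 0.284), or -0.21 (adjusted p = 0.000224) with that scaling. The interaction was 0.29 ± 0.07 (adjusted p = 0.00131).

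In SD, Hmox1 was higher in KO by 0.13 ± 0.05 (adjusted p = 0.0201). That call was lost without WT-SD replicate 1 (0.09, adjusted p = 0.142), WT-SD replicate 3 (0.12, adjusted p = 0.0674), KO-SD replicate 3 (0.10, adjusted p = 0.103) or any of the 3 KO-TGF libraries (0.11, adjusted p = 0.0554 to 0.0557), with DESeq2 (adjusted p = 0.0797), in a fit of the 2 groups alone (0.11, adjusted p = 0.0633) and with scaling by library size (0.05, adjusted p = 0.344). Hmox1 is also expressed by macrophages. The macrophage markers, with sums of 37.2 to 40.5 CPM in WT-SD and 20.6 to 24.2 CPM in WT-TGF, were lower in KO, at 8.45 to 9.91 CPM in SD and 2.67 to 2.996 CPM under TGF-β, where 10 of the 14 genes were at the floor, Adgre1 and Ptprc among them. Their part in the values of Hmox1 was not tested.

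Nqo1 (minus strand of chromosome 8, 107388225 to 107403205), the quinone reductase often used as the marker of NRF2 activity, had the fewest counts of the 10 genes. It had 2.05, 1.91 and 2.55 CPM in WT-SD, 1.09, 1.11 and 1.38 in WT-TGF, 1.70, 1.35 and 1.38 in KO-SD and 1.23, 0.588 and 1.10 in KO-TGF, from 11 to 56 counts per library. WT-SD was above all other groups. The summed macrophage and tubular markers were also highest in WT-SD. Most of the tubular sum was Lrp2, at 41.6 to 44.5 CPM in WT-SD and 3.15 to 3.48 CPM in KO-TGF. Other tubular genes went the other way. Cubn had 2.69 to 3.51 CPM in WT-SD and 5.34 to 6.21 CPM in KO-TGF, and Slc12a1 had 0.23 to 0.46 and 2.78 to 3.21 CPM. The part of these markers in the values of Nqo1 was not tested. Nqo1 fell with TGF-β by 0.86 ± 0.22 on the log2 scale in WT (1.82-fold, adjusted p = 0.000849). In KO the fall was 0.60 ± 0.26 (adjusted p = 0.0393), which was not called without KO-SD replicate 1 (-0.48, adjusted p = 0.137) or KO-TGF replicate 2 (-0.32, adjusted p = 0.283), in a fit of the 2 groups alone (adjusted p = 0.0553) or with DESeq2 (adjusted p = 0.0896). In SD, Nqo1 was lower in KO, with a log2 fold change of -0.55 ± 0.21 (adjusted p = 0.0250), not called with DESeq2 (adjusted p = 0.0779) or without WT-SD replicate 3 (-0.42, adjusted p = 0.133), KO-SD replicate 2 (-0.49, adjusted p = 0.0747) or KO-SD replicate 3 (-0.50, adjusted p = 0.0748). The genotypes under TGF-β differed by -0.29 ± 0.27 (adjusted p = 0.388) and their responses by 0.26 ± 0.35 (adjusted p = 0.647), and neither was called.

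**Figure D4:**
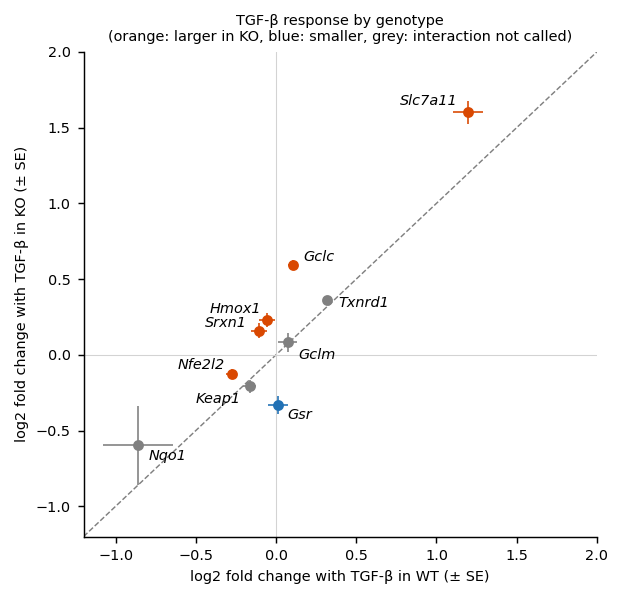
Log2 fold change with TGF-β in WT (x axis) and in KO (y axis), both ± SE, for the 10 genes, with the line of equal response dashed. Gclc, Slc7a11, Hmox1, Srxn1 and Nfe2l2 lie above the line with an interaction at FDR <5%, and Gsr lies below it at 0.01 in WT and -0.33 in KO; the WT values of Gclc and Gsr and the KO value of Srxn1 change sign with scaling by library size alone.

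A wider list of 121 genes of the pathway in 7 roles was read from the same fit. Of these, 103 passed the limit on low values. With TGF-β in WT 44 rose and 43 fell, and in KO 40 rose and 40 fell, while KO was higher than WT for 36 genes and lower for 35 in SD, and higher for 38 and lower for 32 under TGF-β. About as many rose as fell in each comparison. Of all genes tested, 35.9% rose and 36.5% fell with TGF-β in WT, 34.9% and 39.0% did in KO, and KO was higher for 30.5% and lower for 25.3% in SD and higher for 27.3% and lower for 27.7% under TGF-β, so the list as a whole lay near these shares. With scaling by library size alone, the counts were 29 and 54 in WT, 28 and 58 in KO, 29 and 46 in SD, and 25 and 44 under TGF-β. That scaling moved all genes too, and left 2660 of the 11552 tested higher with TGF-β in WT and 2313 in KO. For KO against WT under TGF-β it left 1652 of all genes higher and 5406 lower. The counts of single roles with this scaling, given below, stand beside the same numbers.

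Partners and regulators of NRF2 rose with TGF-β in 13 of 17 genes tested in WT and in 13 of 17 in KO, beside 35.9% and 34.9% of all genes. They fell in 3 and 2, beside 36.5% of all genes in WT and 39.0% in KO. Their medians were 0.17 and 0.25, against -0.01 and -0.02 for all genes, but with scaling by library size alone 8 rose and 6 fell in WT, 7 rose and 5 fell in KO, and the medians were 0.02 and 0.05. The small MAF genes Maff and Mafk, whose proteins pair with NRF2 or with BACH1 on DNA, had the largest changes with TGF-β in WT, while in KO Maff was followed by Bach2, a relative of Bach1. Maff had 20.0, 22.1 and 21.4 CPM in WT-SD and 44.8, 41.1 and 47.0 CPM in WT-TGF, against 11.3, 10.9 and 11.3 CPM in KO-SD and 35.7, 35.7 and 38.0 CPM in KO-TGF. The TGF-β groups did not overlap with the SD groups, and both KO groups were below their WT group. Maff rose 2.09-fold in WT and 3.27-fold in KO (adjusted p = 3.8e-17 and 1.5e-20), and the interaction was 0.65 ± 0.09 (adjusted p = 8.5e-07). Mafk rose 2.05-fold in WT (log2 1.04 ± 0.04, adjusted p = 2.4e-20), and Bach2 rose 2.13-fold in KO (log2 1.09 ± 0.09, adjusted p = 4.3e-12), from 5.88 to 6.18 CPM in KO-SD to 12.4 to 13.4 CPM in KO-TGF. Bach2 passed the limit on low values only in the TGF-β groups. Bach1, the competing repressor, had means of 77.3 ± 3.01, 83.1 ± 1.43, 75.5 ± 3.49 and 73.8 ± 0.706 CPM in WT-SD, WT-TGF, KO-SD and finally KO-TGF, and the ratio of Nfe2l2 to Bach1 counts was 1.58, 1.22, 1.42 and 1.33 in the same order.

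Among other glutathione genes, 8 of 21 tested rose with TGF-β in WT and 11 fell, and in KO 7 rose and 12 fell, of which the rises were near the shares of all genes (35.9% in WT and 34.9% in KO) and the falls stood beside 36.5% and 39.0%. Gstm1, a glutathione transferase, fell from 49.3 to 50.9 CPM in WT-SD to 15.7 to 16.1 CPM in WT-TGF, and from 34.0 to 38.0 CPM in KO-SD to 4.65 to 6.51 CPM in KO-TGF. Reads of Gstm1 and its close paralogs may be split or lost in counting, so its values are uncertain. Gpx3, a secreted glutathione peroxidase, was 4.63-fold lower in serum-depleted KO than WT cells (log2 fold change -2.21 ± 0.04, adjusted p = 2.0e-28), with 54.1 to 61.9 against 260 to 281 CPM. Gpx7, a peroxidase of the endoplasmic reticulum, was 6.83-fold lower in KO in SD and 9.01-fold lower under TGF-β, at 2.78 to 2.83 CPM in KO-TGF against 25.1 to 25.4 in WT-TGF. Of the 21 genes tested in this role, 5 were more than 2-fold lower in KO in SD and 1 more than 2-fold higher, beside 3.15% and 3.25% of all genes.

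The thioredoxin and peroxiredoxin role had 9 of 17 genes higher and 4 lower with TGF-β in WT, and 7 higher and 2 lower in KO, beside 35.9% of all genes higher and 36.5% lower in WT and 34.9% and 39.0% in KO, or 6 higher and 7 lower and 5 higher and 9 lower with scaling by library size alone. Sesn1, a stress-induced sestrin, had the largest change of the role in both genotypes, a 2.44-fold fall in WT (log2 -1.29 ± 0.04, adjusted p = 5.5e-22) and a 2.61-fold fall in KO (log2 -1.38 ± 0.05, adjusted p = 1.3e-21). Its level went from 59.99 to 63.2 CPM in WT-SD to 24.5 to 25.7 CPM in WT-TGF, and from 48.8 to 50.5 CPM in KO-SD to 18.8 to 19.2 CPM in KO-TGF. Prdx6, a peroxiredoxin that also repairs oxidized phospholipids, rose 2.13-fold in WT and 2.09-fold in KO, from 116 to 122 to 242 to 260 CPM and from 130 to 136 to 274 to 286 CPM. Genes that make NADPH, the reductant for both systems, had 3 of 8 higher and 2 lower with TGF-β in WT, and 3 higher and 1 lower in KO. The rises were near the shares of all genes, and the falls stood beside 36.5% in WT and 39.0% in KO. With scaling by library size alone they were 1 and 4 in WT and 3 and 4 in KO. Drug metabolism and efflux genes fell in 13 of 19 in WT and in 14 of 19 in KO, beside 36.5% and 39.0% of all genes. They rose in 4 and 3, beside 35.9% and 34.9%. Their medians were -0.73 and -0.72, against -0.01 and -0.02 for all genes. Aldh1a1, a retinaldehyde and aldehyde dehydrogenase, led them with a 5.55-fold fall in WT and a 17.6-fold fall in KO, to 1.92 to 2.73 CPM in KO-TGF.

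Iron and heme genes fell with TGF-β in 7 of 11 in both genotypes, beside 36.5% of all genes in WT and 39.0% in KO. In WT 1 rose and in KO 2, beside 35.9% and 34.9% of all genes. Fth1, the ferritin heavy chain that stores iron and is a known NRF2 target, had 1538 to 1555 CPM in WT-SD and 848 to 901 in WT-TGF, and 1228 to 1251 in KO-SD and 546 to 565 in KO-TGF. It fell with TGF-β by 0.82 ± 0.02 on the log2 scale in WT (adjusted p = 9.2e-24) and by 1.15 ± 0.02 in KO (adjusted p = 2.1e-27). Tfrc, the transferrin receptor that takes iron up, rose 2.21-fold in WT and 2.04-fold in KO. Slc40a1, the iron exporter ferroportin, was 2.50-fold higher in KO in SD and 4.46-fold higher under TGF-β, at 5.51 to 6.95 CPM in KO-TGF against 1.09 to 1.68 in WT-TGF. Slc40a1 passed the limit on low values only in KO-SD, where its mean was 0.941 RPKM.

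The ATF4 program, which answers amino acid and endoplasmic reticulum stress and shares Slc7a11 with NRF2, was higher in KO than in WT for 10 of 10 genes in SD and for 10 of 10 under TGF-β, beside 30.5% and 27.3% of all genes, with medians of 0.61 and 0.72 against 0.02 and 0.00 for all genes. Trib3, a pseudokinase induced by ATF4, had 10.0 to 10.1 CPM in WT-SD, 19.9 to 23.8 in WT-TGF, 31.5 to 36.9 in KO-SD and 57.3 to 62.1 in KO-TGF. Asns, asparagine synthetase, had 75.8 to 81.1, 165 to 170, 120 to 121 and 294 to 299 CPM in the same order. In Asns the order of the group means was that of Slc7a11, as it was in Atf4 and Cth. In the other genes of the program, Trib3 among them, the mean of KO-SD was above that of WT-TGF. Cth, which makes cysteine from cystathionine, rose with TGF-β 2.23-fold in WT and 3.27-fold in KO. In WT, TGF-β raised 6 of the 10 and lowered 3, beside 35.9% and 36.5% of all genes. In KO it raised 5 and lowered 2, beside 34.9% and 39.0%, or lowered 4 with scaling by library size alone. Of the 9 ATF4 genes with a promoter in the RefSeq table, the windows of 3 (Trib3, Asns and Vldlr) held TGATGNAA, which is also in the Slc7a11 window printed above. The part of ATF4 in the values of Slc7a11 was not tested.

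**Figure D5:**
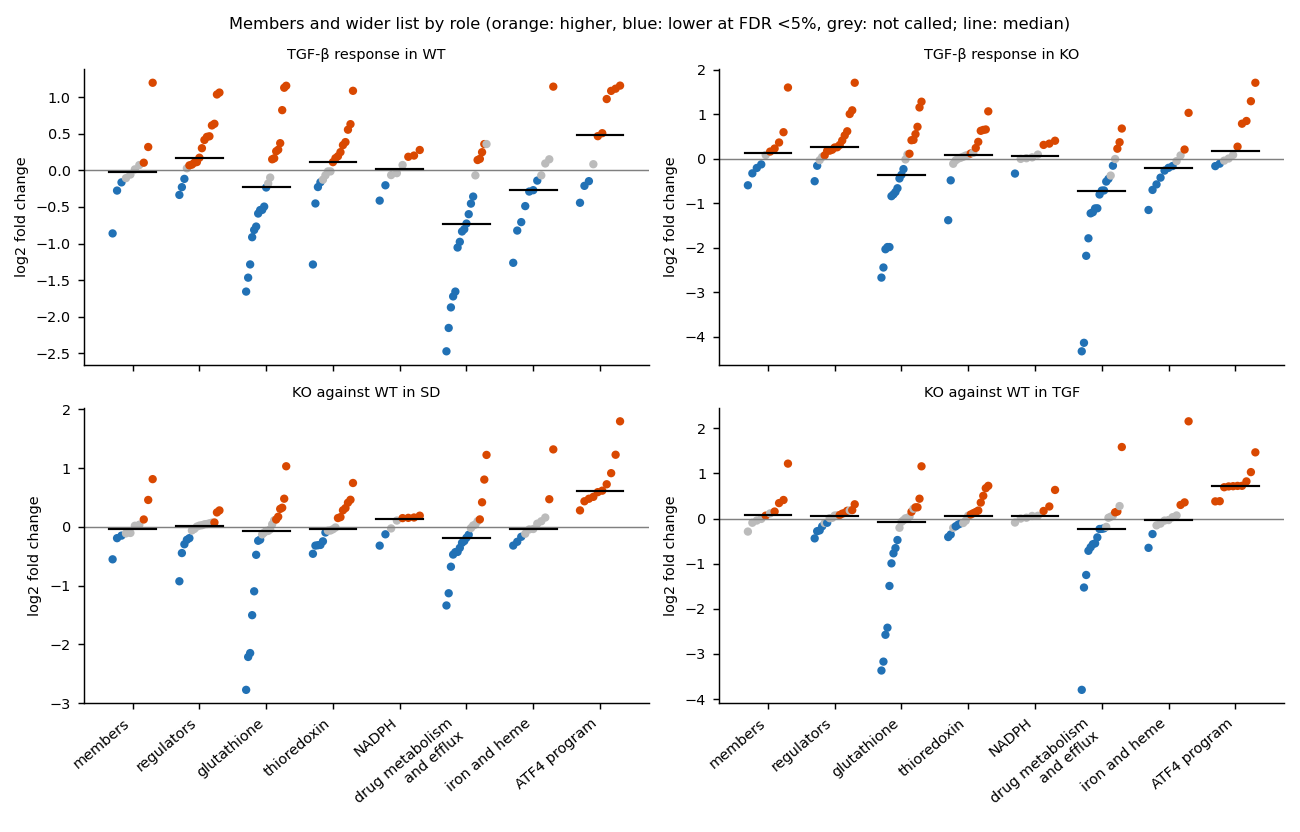
Log2 fold change (y axis) of the 10 genes and of the wider list by role (x axis) in the 4 pairwise comparisons, each point a gene, coloured by its call at FDR <5%, with a line at the median of each role. The ATF4 genes lie above 0 in both comparisons of KO with WT, and the drug metabolism genes lie mostly below 0 with TGF-β, at medians of -0.73 in WT and -0.72 in KO.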

How the data were processed

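The counts deposited by the authors are whole numbers of reads per gene and library, without normalization or filter. Per the study's methods, 12 mRNA libraries were sequenced as single-end reads, aligned to mm10 with TopHat and counted on RefSeq genes with HTSeq on the strand of the gene. Reads outside exons were 10.3% to 15.4% of all counts listed for a library (genes and these classes), non-unique reads 11.2% to 11.7% and ambiguous reads 0.225% to 0.274%. They were left out of all steps. Genes with near-identical copies (Gstm, Gsta and Ugt1a families) are uncertain.

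Counts were scaled by TMM and fitted by the quasi-likelihood method of edgeR 4.0.16 in R 4.3.3, with 1 mean per group over all 12 libraries, and Benjamini-Hochberg adjustment over 11552 genes with RPKM >1 in at least 1 library (CPM >1 for genes without a length). A gene's length was that of its merged GENCODE vM21 exons. The script was tested on simulated data. Ratios of counts within a library were compared by exact two-sided permutation tests, and adding 1 count to each gene was an alternative.

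The 10 genes, the wider list of 121 genes, the markers and the rules were chosen with earlier results of these data known. All 10 genes are named. Of the wider list, in each role the 2 genes with the largest change in each pairwise comparison were eligible, if called at FDR <5% with libraries that did not overlap and a mean of 5 CPM or more in 1 group, with the partners in the ratios. For likeness, the 2 genes with the highest Pearson r to each gene over the 12 libraries were taken. Alternatives to these settings were library size without TMM, RLE factors, DESeq2 1.42.0, no filter, CPM >1 in 3 or more libraries, separate fits of each pair of groups, a replicate block, and leaving out each library.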

Additional observations from a re-analysis of the deposited data

Results flagged for a closer look

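The TGF-β response differed between the genotypes, by the interaction test of edgeR at FDR <5%, for 6 of the 10 genes, beside 25.3% of all genes tested. The response in KO minus that in WT was 0.49 for Gclc, 0.40 for Slc7a11, 0.29 for Hmox1, 0.27 for Srxn1, 0.15 for Nfe2l2 and -0.34 for Gsr, all on the log2 scale. Gclc rose in both genotypes, and more in KO, although its value in WT turned to -0.05 with scaling by library size alone. For Slc7a11 the larger response started from a higher SD level in KO, and for Gclc from a lower one. Nfe2l2 fell in both genotypes, and less in KO. With 1 library left out, the difference in response was not called for Slc7a11 in 2 cases (without WT-SD replicate 3 or KO-SD replicate 3, 0.34 and 0.29) or for Nfe2l2 in 4 (without WT-SD replicate 1 or 2, WT-TGF replicate 2 or KO-SD replicate 3, 0.12 to 0.14). Gsr started higher in KO-SD and fell in KO.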

How the results depend on the processing

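Of 939 values of single genes under the alternatives, 856 kept direction and side of the threshold, 31 lost a call, 22 gained one and 30 changed sign. Of the 939, 600 came from fits without 1 library, which for many results was a library outside the groups compared. Scaling by library size alone made the most difference, with 28 of 50 values the same, 4 calls lost, 7 gained and 11 signs changed. It gave 6 of the 10 genes lower with TGF-β in WT, 3 higher with TGF-β in KO, 5 lower in KO in SD, and 3 higher and 3 lower in KO under TGF-β, 29 genes of the wider list higher with TGF-β in WT and 25 higher in KO under TGF-β, and among all genes 2660 higher with TGF-β in WT, 2313 higher in KO, and 1652 higher and 5406 lower in KO under TGF-β. It turned the sign with TGF-β in WT for Gclc (-0.051), Gclm (-0.083) and Gsr (-0.14), in KO for Gclm (-0.12) and Srxn1 (-0.042), between genotypes in SD for Keap1 (-0.036) and Txnrd1 (-0.053) and under TGF-β for Txnrd1 (-0.055) and Gsr (-0.0049), and in the interaction for Gclm (-0.037) and Txnrd1 (-0.0021). With this scaling the median of all genes moved by -0.16 for the TGF-β response in WT and by -0.20 for that in KO. For KO against WT it moved by -0.07 in SD and by -0.12 under TGF-β, and for the interaction by -0.05. Set against this median, the values that turned sign kept the sign they had with TMM. The 2 scalings differ by nearly the same amount for all genes of a comparison. Setting values against the median thus undoes the change of scaling, and cannot decide which sign holds. Keap1 between genotypes under TGF-β was 0.0076 with DESeq2, 0.0076 with RLE factors, 0.0051 with no filter and 0.00067 with the CPM filter, and the interaction of Gclm was -0.0078 with no filter. With 1 library left out, the genes with a larger response in KO numbered 3 to 5, Gsr in WT ranged from -0.018 to 0.075, Keap1 between genotypes from -4.8e-05 to 0.057 in SD and from -0.013 to 0.024 under TGF-β, and the interactions from -0.064 to 0.0059 for Keap1 and from -0.035 to 0.096 for Gclm. Replicate numbers are shared between groups, but in 18 pairs of libraries with the same number the correlation of deviations was -0.023 to 0.087, 0 of them over 0.1. No pairing by number was seen, although deviations within groups of 3 libraries cannot exclude it. The replicate block changed no call of the 10 genes in 50 results. Nqo1 had the fewest counts of the 10 genes, 11 to 56 per library. The cause of these differences was not tested.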

Other observations

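The genes whose levels were most like those of each member over the 12 libraries, among 10096 genes searched, are given as a description. The libraries share their groups and scaling, so any pair of genes that follow the groups will be alike. Slc7a11 was most like Fam91a1 (Pearson r = 0.993) and Uggt1 (r = 0.993), the folding sensor of glycoproteins in the endoplasmic reticulum. Txnrd1 was most like Plec (r = 0.997), which encodes plectin, and Micall1 (r = 0.996). Nfe2l2 was most like Ubtf (r = 0.976), Keap1 like Pcgf2 (r = 0.979), Gclc like Npc2 (r = 0.976), Gsr like Glg1 (r = 0.969) and Hmox1 like Lonp1 (r = 0.961), the protease of the mitochondrial matrix. Gclm (Vps54, r = 0.896) and Srxn1 (Exosc5, r = 0.821) had no gene as close. Nqo1 was under 5 CPM and was not searched.

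Among the members themselves, Slc7a11 and Txnrd1 had r = 0.857 over the 12 libraries and Slc7a11 and Gclc r = 0.833, whereas Slc7a11 and Nfe2l2 had r = -0.861 and Slc7a11 and Gclm r = 0.092. The mRNA of Nfe2l2 was thus lowest where that of Slc7a11 was highest.

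Other genes of the wider list changed with genotype. Txnip, the inhibitor of thioredoxin, was higher in KO by 0.75 ± 0.03 on the log2 scale in SD and by 0.73 ± 0.03 under TGF-β (edgeR, adjusted p = 7.3e-20 and 2.2e-19). Chac1, which degrades glutathione and is induced by ATF4, was higher in KO by 1.03 ± 0.09 in SD and by 1.16 ± 0.07 under TGF-β (adjusted p = 2.8e-11 and 2.6e-15). It was chosen after its values were seen. Idh1, a source of cytosolic NADPH, was higher in KO under TGF-β by 0.64 ± 0.04 (adjusted p = 1.2e-13). Gsta4, which conjugates lipid aldehydes, was lower in KO in both conditions, with 0.525 to 0.908 CPM in KO-TGF against 6.24 to 7.53 in WT-TGF, but its reads may be shared with close paralogs.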
